A study of Mus musculus with 8 samples.

Results

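Ribosome footprints of Gcn2 knockout (KO) and Gcn2 wild-type (WT) cells kept in amino-acid-replete medium were compared gene by gene, 1 library of each. All genes were taken whose mean count over the 4 footprint libraries of the study was at least 30, which gave 9489 of the 55536 genes in the files, 9168 of them protein-coding. The cells were KRPC-A, described in the labels as a line of PDAC-like pancreatic tumour cells from genetically engineered mice of C57BL/6 background. The KO cells were Gcn2 KO and the WT cells Gcn2 WT, and both were moved for 1 h to medium with all amino acids before lysis. A second pair of footprint libraries came from KO and WT cells moved for 1 h to leucine-free medium, and each of the 4 states also has an RNA-seq library. Each group is 1 library, so every ratio compares a pair of libraries and has no check against replicate cultures. How the knockout was made, and whether the KO cells were 1 clone or a pool, is not given in the sources used here.

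GCN2, encoded by Eif2ak4, is a kinase that is switched on by uncharged transfer RNA and phosphorylates the initiation factor eIF2alpha. Phosphorylated eIF2alpha lowers initiation on most mRNAs and favours a few with upstream open reading frames, among them Atf4, whose product turns on genes of amino acid uptake and synthesis. A ribosome footprint is the stretch of mRNA that a ribosome shields from nuclease, and the number of footprints on a gene reflects both the amount of its mRNA and how densely ribosomes load it. The replete pair asks how the 2 populations differed 1 h after a change to medium with all amino acids.

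The KO replete library held 6921265 counted footprints and the WT replete library 9993211, of which 93.6% and 92.6% lay on protein-coding genes. The leucine-free pair was shallower, with 4563018 in KO and 2671491 in WT cells. Levels are given as counts or as CPM (counts per 1000000 counts of the library) after scaling, and differences as log2 of KO over WT with the 95% interval that counting error alone gives. The word passed is used of a gene with a ratio of 1 or more in either direction on that scale (a 2-fold difference) whose interval does not include 0. Scaled values are relative within a library, so an equal change in all mRNAs would not show. Of the markers of duct and epithelium, 4 of 10 reached the count minimum, with a summed level of 2536 CPM in KO and 2138 CPM in WT cells. Krt8, Krt18, Sox9 and Spp1 were the 4, while Muc1 was at 0 in both libraries, Krt19 had 5 and 4 footprints and Epcam 2 and 1, in KO and WT cells in that order. The mesenchymal markers Vim, Fn1 and Col3a1 were abundant, and 10 of 14 such markers were measured, with 11080 CPM in KO and 9968 CPM in WT cells. Acinar markers summed to 3 footprints in KO and 4 in WT cells, with 6 of 9 at 0 in both, and immune and endothelial markers to 14 and 7, with 3 of 10 at 0 in both. In bulk libraries like these, a change in every cell and a change in the share of cells that carry an mRNA cannot be told apart.

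Footprints of most genes had similar levels in the 2 libraries, and a small set differed by 2-fold or more. Of the 9489 genes, 204 passed as higher in KO cells (2.15%) and 94 as lower (0.991%). For every gene list below, these shares are the ones to set beside its counts of passing genes in replete footprints. All 298 genes with a ratio of 1 or more in either direction had an interval off 0, so the interval removed none at this count minimum. The median log2 ratio was -0.00, the middle range between the quartiles ran from -0.21 to 0.22, and 82.9% of genes lay within 0.5 of 0. Among protein-coding genes 200 were higher (2.18%) and 76 lower (0.829%). The spread of the ratios narrowed with depth. The SD was 0.64 in the 1837 protein-coding genes with the fewest footprints (25 to 256 over the pair) and 0.31 in the 1834 with the most. Ratios also leaned with depth, with a median of 0.12 in the shallowest of these groups and -0.07 in the deepest. The shallowest held 120 of the higher and 44 of the lower genes, and the deepest 10 and 1.

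**Figure D1:**
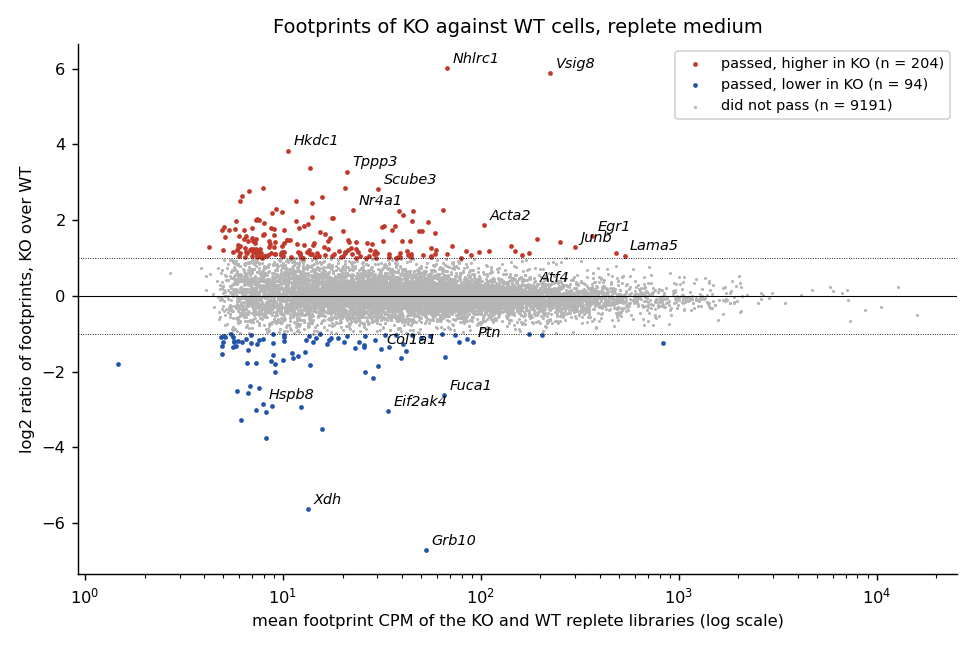
Each point is a gene, placed by its mean footprint CPM in the KO and WT replete libraries (log scale) and its log2 ratio of KO over WT footprints; red points passed as higher in KO cells (204 genes), blue points as lower (94 genes), and dotted lines mark ratios of 1 and -1. Most genes lie near 0 and the cloud narrows with level, while Grb10 and Xdh stand far below it and Nhlrc1 and Vsig8 far above.

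The threshold divided a continuous range. Zfp57 and Tkfc lay just inside it at 1.00 and 1.00, while Tubb2b, with 126 footprints in KO and 88 in WT cells, and Slc9a3r2, with 106 and 74, lay just outside. On the low side Manba at -1.004 and Rhbg at -1.01 were inside, and Kantr and AF357399 outside. At the count minimum, Rpl21-ps9 and Pld1 had a mean count of 30 and were kept, and Lgr6 and Opn3 with 29.75 were not.

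The targeted gene had few footprints in KO cells. Eif2ak4 (ENSMUSG00000005102, chromosome 2, GRCm38 positions 118388618 to 118475234, plus strand) had 47 footprints or 7.29 CPM (95% interval 5.35 to 9.69) in KO replete cells, against 546 or 60.4 CPM (55.5 to 65.7) in WT replete cells. The log2 ratio was -3.04 (-3.51 to -2.62), and its RNA, with 522 reads in KO and 3601 in WT cells, had -2.65. The counts cover all exons of the gene, so they do not show which part of the message remained.

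Of the mRNAs of the integrated stress response, the pathway GCN2 feeds, more lay below than above their WT level in replete medium, mostly by less than 2-fold. Of 19 measured kinases, phosphatase subunits and response factors, the targeted gene among them, 14 were below 0. The median was -0.15, against -0.00 over all genes. RNA of the replete pair leaned the same way, with 14 of the 19 below 0 and a median of -0.21. Of these 19, 3 passed as lower and 0 as higher (0.991% and 2.15% of all genes did). Besides Eif2ak4 these were the stress transcription factors Ddit3 (CHOP), with 4 footprints in KO and 21 in WT cells and a ratio of -1.80 (-3.91 to -0.34), and Atf5, with 34 and 114 and -1.25 (-1.86 to -0.70). The RNA of Ddit3 differed little, with 138 reads in KO and 149 in WT cells, and that of Atf5 had a ratio of -0.82. Atf5 lies in the first 80 Mb of chromosome 7, where 321 genes had a median of -0.22 in footprints and -0.31 in RNA. The interval of Ddit3 is wide because 4 footprints carry it. Atf4 itself had 200.1 CPM (189 to 211) in KO and 172.8 CPM (164 to 182) in WT cells, a ratio of 0.21 (0.10 to 0.32), beside an RNA ratio of 0.84. Its footprint ratio in leucine-free medium was -1.31. Ppp1r15a (GADD34), which brings a phosphatase to eIF2alpha, had 42 footprints in KO and 85 in WT cells and an interval that included 0, -0.53 (-1.10 to 0.02). The other eIF2alpha kinases Eif2ak3 (PERK) and Eif2ak1 (HRI) stood at -0.50 and -0.46, and Eif2ak2 (PKR) at 0.00.

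ATF4 and CHOP targets showed no common shift. Of 27 measured of the 33 listed, 1 passed as higher and 0 as lower (2.15% and 0.991% of all genes did). The median was -0.07 with 11 above 0. In the leucine-free footprint pair the same genes had a median of -0.57. The gene that passed was Ndrg1, which is induced by hypoxia and stress, with 201 footprints in KO and 118 in WT cells, 1.25 (0.92 to 1.595). The asparagine synthetase gene Asns stood at -0.05, the serine synthesis genes Phgdh and Psat1 at -0.07 and -0.37, the leucine transporter subunits Slc7a5 and Slc3a2 at -0.35 and -0.38, and Chac1, a glutathione-degrading enzyme, at -0.47 (-1.10 to 0.13) on 36 and 70 footprints in KO and WT cells. None of the 20 cytosolic aminoacyl-tRNA synthetases passed, with a median of -0.09 and a range from -0.55 to 0.22.

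The 10 higher genes named here were those with the highest ratios among protein-coding genes that had at least 100 footprints and 100 RNA reads over the replete pair and lay above 0 in RNA and in leucine-free footprints too. Hkdc1, a member of the hexokinase family, led with 128 footprints (19.8 CPM) in KO and 12 (1.33 CPM) in WT replete cells, a ratio of 3.84 (3.05 to 4.89). The leucine-free libraries held 52 of its footprints in KO and 4 in WT cells. Tppp3, a tubulin polymerisation protein, had 246 footprints in KO and 35 in WT cells, 3.28 (2.79 to 3.85). The intervals of both genes lay far from 0 in spite of the small WT counts.

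Scube3, a secreted glycoprotein with EGF-like repeats, had 343 footprints in KO and 68 in WT cells, 2.81 (2.44 to 3.22). Edil3, an integrin-binding matrix protein, had 175 and 40, a ratio of 2.60, and Olfml2b, a secreted olfactomedin-domain protein, 154 and 39, a ratio of 2.45. Serpinb2, which encodes plasminogen activator inhibitor type 2, had 90 footprints in KO and 17 in WT cells, a ratio of 2.85. The receptors Ngfr, the p75 neurotrophin receptor, and Sorcs2, a sorting receptor of the VPS10 family, had 2.51 and 2.29. The LIM-domain gene Crip2 had 685 footprints in KO and 200 in WT cells, 2.26 (2.03 to 2.50), and the nuclear receptor Nr4a1 had 241 and 70, 2.26 (1.88 to 2.68). RNA ratios of these 10 genes ran from 1.28 for Nr4a1 to 3.27 for Sorcs2, and the leucine-free footprint ratio was highest for Nr4a1, at 4.41.

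The 10 lower genes, named by the same rule, included a few that were close to silent in KO cells. Grb10, an imprinted gene for an adaptor that dampens insulin and IGF1 receptor signalling (ENSMUSG00000020176, chromosome 11, GRCm38 positions 11930508 to 12038683, minus strand), had 6 footprints (0.930 CPM) in KO replete cells, against 943 (104.3 CPM) in WT replete cells. The ratio was -6.71 (-8.26 to -5.68), the lowest of the 9489 genes, and the leucine-free libraries held 1 footprint in KO and 271 in WT cells. Its RNA numbered 42 reads in KO and 5441 in WT cells. Xdh, the xanthine dehydrogenase of purine breakdown, had 3 footprints in KO and 237 in WT cells, -5.63 (-8.11 to -4.25). Its RNA was at 0 reads in the KO and 439 in the WT library, at least 133.4-fold lower in KO cells with the 0 set at 3 counts in that library.

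Mid2, a microtubule-associated ubiquitin ligase, and Smarca1, an ISWI-type chromatin remodeller, are both on the X chromosome and had 1.09 and 2.79 CPM in KO cells, against 11.2 and 21.8 CPM in WT cells, ratios of -3.29 and -2.94. Sprr2k, a small proline-rich protein gene, had 16 footprints in KO and 262 in WT cells, and the Ran-binding protein gene Ranbp3l 11 and 133. Galnt3, which starts mucin-type O-glycosylation, had 10 footprints in KO and 118 in WT cells, -3.02 (-4.17 to -2.15). Cdx2, a homeobox factor of intestinal epithelium, had 13 and 140, -2.90 (-3.89 to -2.12). AW551984, with 7 and 139, and Eif2ak4 complete the 10. RNA ratios of the 10 in the replete pair were -1.82 for Smarca1 and lower for the others.

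Among deeply counted genes the differences were smaller. The following genes were chosen for their depth after their values were seen. Igfbp4, a secreted binder of insulin-like growth factors, had 285.0 CPM in KO and 101.4 CPM in WT cells, 1.49 (1.38 to 1.61), and the leptin receptor gene Lepr 364.6 and 137.1 CPM, 1.41 (1.31 to 1.51). Clu, which encodes the secreted chaperone clusterin, had 4284 footprints in KO and 2759 in WT cells, 1.12 (1.05 to 1.19). On the low side Ptn, which encodes the growth factor pleiotrophin, had 352 footprints in KO and 1150 in WT cells, -1.22 (-1.40 to -1.05). Ifrd1, whose mRNA has an upstream open reading frame, had 303 and 983, -1.21 (-1.40 to -1.02), beside an RNA ratio of -0.64. The X-linked genes Capn6 and Zfp280c had 344 and 744 footprints in KO cells, against 1056 and 2115 in WT cells, ratios of -1.13 and -1.02.

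The genes that passed mostly kept their side in 2 further pairs of libraries. Of the 204 higher genes, 193 were above 0 in leucine-free footprints and 119 passed there as higher, which is 58.3% of the 204 and 24.9% of the 477 genes that passed as higher in that pair (5.03% of the genes). Of the 94 lower genes, 86 were below 0 and 59 passed, 62.8% of the 94 and 26.2% of the 225 that passed as lower in leucine-free footprints (2.37%). RNA-seq of the replete cells gave 239 higher (2.58%) and 122 lower genes (1.32%) among the 9261 with enough RNA reads. There, 118 of 195 higher genes and 46 of 83 lower genes passed the same way, with median RNA ratios of 1.13 and -1.10. In all 3 pairs 89 genes passed as higher and 39 as lower. Over all genes the replete footprint ratio had a Spearman rho of 0.46 with the leucine-free footprint ratio (9489 genes) and 0.55 with the RNA ratio (9261 genes), given as a description across genes, which are not independent replicates and share their libraries.

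**Figure D2:**
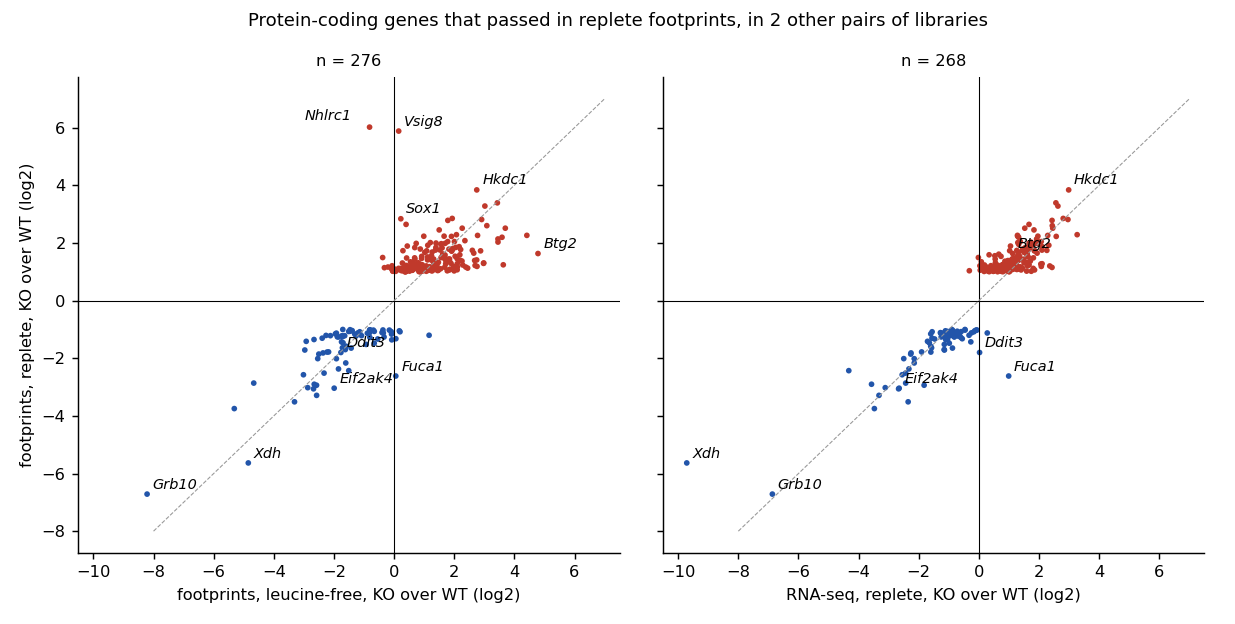
Protein-coding genes that passed in replete footprints, with their log2 ratio there on the vertical axis and, on the horizontal axis, the log2 ratio in leucine-free footprints (left, 276 genes) or in replete RNA-seq (right, 268 genes); all ratios are KO over WT, the dashed line marks equal ratios, and Xdh, with 0 RNA reads in KO cells, is drawn at its value with the added count of 0.5. Most points share a sign with the replete footprints, while Nhlrc1, Vsig8, Sox1 and Fuca1 stand off the diagonal.

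Some genes that passed in replete footprints had under 10 RNA reads over the replete pair. Of those named here only Rhbg also passed in leucine-free footprints. Vsig8, an immunoglobulin-domain gene, had 2838 footprints in KO replete cells, against 67 in WT replete cells, 5.88 (5.54 to 6.26), and 68 and 34 in KO and WT leucine-free cells. It had 0 RNA reads in both replete libraries. Nhlrc1, which encodes the ubiquitin ligase malin, had 858 footprints in KO replete cells, against 18 in WT replete cells, 6.02 (5.39 to 6.82), with 13 and 13 in the leucine-free libraries and 0 and 5 RNA reads. Both genes were high in the KO replete footprint library alone. Sox1, a neural transcription factor, had 232 footprints in KO and 45 in WT replete cells and 0 RNA reads in both. The kinase gene Wnk2 had 74 and 49 in KO and WT replete cells, again with almost no RNA. Rhbg, an ammonium transporter gene with 0 RNA reads in both replete libraries, passed as lower in both media, with 38 footprints in KO and 108 in WT replete cells (-1.01) and 38 and 59 in the leucine-free pair (-1.47). For genes with so few RNA reads, reads from other sequences that map to the gene were not tested.

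Fuca1, a lysosomal fucosidase, was the reverse of Vsig8 and Nhlrc1, high in the WT replete footprint library alone. It had 118 footprints (18.3 CPM) in KO replete cells, against 1018 (112.6 CPM) in WT replete cells, -2.62 (-2.91 to -2.35). The leucine-free libraries held 144 in KO and 77 in WT cells, a ratio of 0.06, and the RNA ratio was 0.99, from 852 reads in KO and 470 in WT cells. In all, 8 protein-coding genes with at least 100 footprints passed in replete medium and had the other sign without leucine, 6 higher and 2 lower. Besides Nhlrc1 and Fuca1 the named ones lay between -0.32 and 0.17 in leucine-free medium. They were the mitophagy receptor gene Bnip3l (1.14 in replete, -0.32 in leucine-free), Vwa5a (1.14 and -0.04), the neuronal tubulin gene Tubb3 (1.10 and -0.09), the kinase gene Sbk1 (1.03 and -0.05) and the chemokine gene Cxcl10 (-1.05 and 0.17).

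Immediate early genes are switched on by growth factor, calcium or stress signals without new protein synthesis, and many of their promoters bind the factors SRF and CREB. As a list they had more footprints in KO than in WT cells with amino acids present. Of 46 measured of 51 listed, 13 passed as higher and 0 as lower (2.15% and 0.991% of all genes did), 44 were above 0, and the median was 0.71, against -0.00 over all genes. The zinc-finger factors come first. Egr1 had 546.5 CPM in KO and 182.7 CPM in WT cells, 1.58 (1.496 to 1.67), Egr3 30.9 and 9.30 CPM, 1.72 (1.36 to 2.12), and Egr2 20.8 and 7.86 CPM, 1.40 (0.98 to 1.84). Among AP-1 subunits Fos had 77 footprints in KO and 26 in WT cells, 2.03 (1.40 to 2.75), Fosb 79 and 35, Jun 982 and 605 with 1.18 (1.04 to 1.33), and Junb 2734 and 1580 with 1.28 (1.19 to 1.37).

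Feedback regulators and secreted products were among the 13 as well. The MAP kinase phosphatase genes Dusp2 and Dusp5 had 1.24 and 1.22, and the antiproliferative gene Btg2 had 160 footprints in KO and 72 in WT cells, 1.63 (1.23 to 2.06). Ptgs2, the inducible cyclooxygenase, had 202.2 CPM in KO and 81.8 CPM in WT cells, 1.31 (1.18 to 1.44), and the growth factor gene Hbegf 120.9 and 57.7 CPM, 1.07. Nr4a1, named above, had the highest ratio of the list. Members that did not pass include Dusp1, with 68 footprints in KO and 81 in WT cells and 0.23 (-0.25 to 0.72), Myc with 0.16 (0.11 to 0.21), Srf with 0.58 (0.33 to 0.83), and the members below 0, Nfkbia (-0.36) and Mcl1 (-0.30). RNA of the replete pair had a median of 0.86 for the list with 15 members passing as higher, and leucine-free footprints 1.64 with 31. Over all genes 2.58% passed as higher in that RNA pair and 5.03% in leucine-free footprints.

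**Figure D3:**
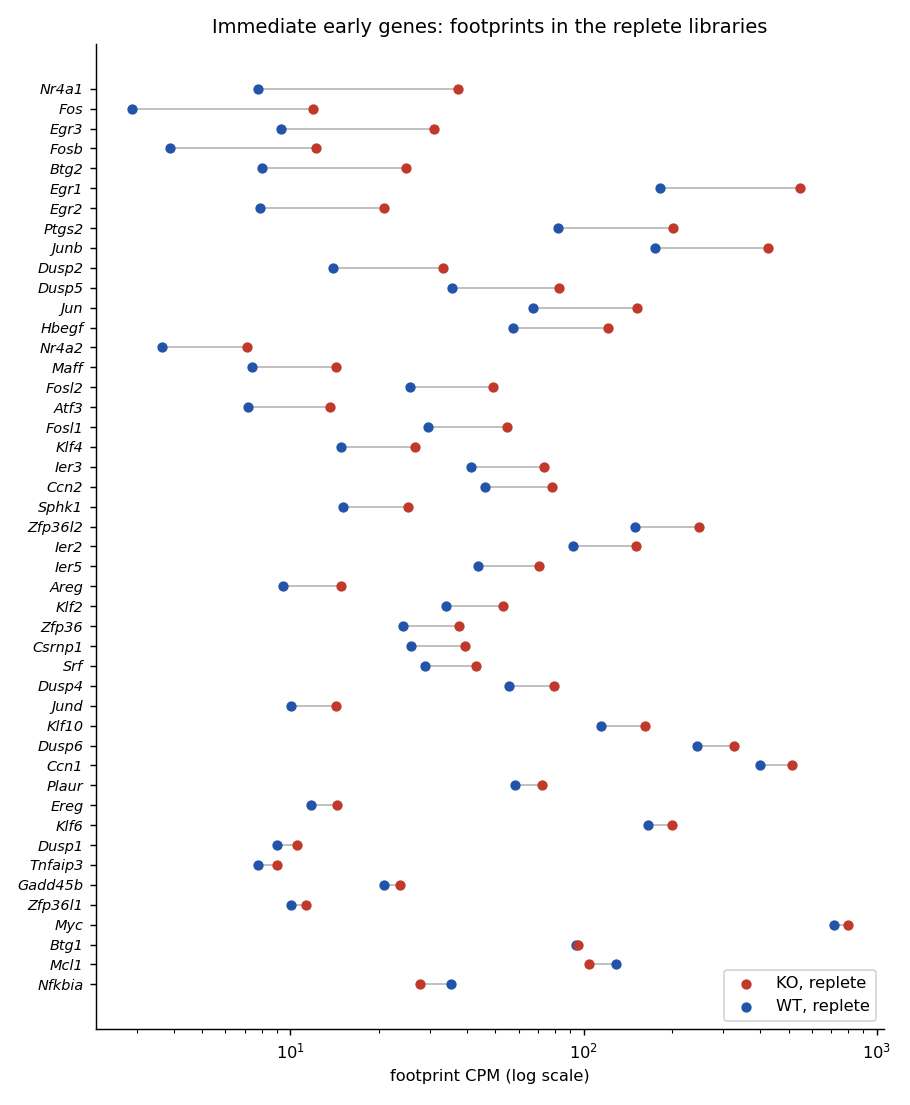
Footprint CPM (log scale) of the 46 measured immediate early genes in the KO (red) and WT (blue) replete libraries, with the gene with the highest KO over WT ratio at the top and a grey line joining the pair of values. The KO point lies right of the WT point in 44 of 46 genes, and by more than the 2-fold threshold in the 13 at the top.

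Genes of the contractile actin cytoskeleton, many of them targets of SRF and its cofactors, also had more footprints in KO cells. Of 16 measured, 4 passed as higher and 0 as lower (2.15% and 0.991% of all genes did). The median was 0.57 with 15 above 0. Acta2, smooth muscle alpha-actin, had 163.9 CPM in KO and 44.8 CPM in WT cells, 1.87 (1.70 to 2.04), and the tropomyosin gene Tpm2 had 484 and 144 footprints, 2.23 (1.96 to 2.51). Skeletal alpha-actin, Acta1, had 53 footprints in KO and 32 in WT cells, 1.20 (0.55 to 1.90). Gamma-actin, Actg1, had 45 and 27, a value that is uncertain because the gene has near-identical copies and reads that map to several places were not counted. The calponin gene Cnn2 lay at the threshold with 0.99 (0.90 to 1.09), and Actn4, alpha-actinin, was below 0 at -0.12. RNA ratios had a median of 0.45, with 4 passing as higher (2.58% of all genes with enough RNA reads did).

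SRF binds a short A/T-rich element named the CArG box, and CREB binds the cAMP response element TGACGTCA or its shorter core TGACG, which the full element contains. Promoter windows from RefSeq (GRCm38.p6, 250 bases before to 50 after each annotated start) were searched on both strands, and a gene counted as holding a motif when any of its windows did. A CArG box was present in 6 of 15 actin-list genes with a window (40%) and in 4 of 35 immediate early genes (11.4%), against 114 of 7362 measured protein-coding genes (1.55%) and 1.63% of all 32851 windows in the table. The actin list holds SRF targets by its definition, so its high share was built in and is not a result of these data. The immediate early list includes many genes known to bind SRF and CREB. Its shares of their elements, here and below, therefore also follow from the choice of list. Srf, which held a CArG box, is in both lists. The core TGACG was present in 23 of 35 immediate early genes (65.7%), against 38.4% of measured protein-coding genes and 20.8% of all windows, and the full element in 11.4%, against 3.76% of the measured genes and 1.79% of all windows. The AP-1 element TGANTCA was present in 14.3% of the immediate early genes, against 5.46% of the measured genes and 7.81% of all windows. Among the 10 immediate early genes that passed and have a window, 9 held the core, 2 a CArG box and 0 the AP-1 element. Of the 152 protein-coding genes that passed as higher and have a window, 28.9% held the core, 5.26% the AP-1 element and 5.26% a CArG box. The 4 genes of these 2 lists that passed and held a CArG box are shown to let the element be read in place. Each stretch runs from 120 to 21 bases before an annotated start, on the strand of the gene, with the CArG boxes in capitals. The coordinates are chr10:67537446-67537545 (plus) for Egr2, chr19:53529025-53529124 (plus) for Dusp5, chr8:123894796-123894895 (minus) for Acta1 and chr11:120348516-120348615 (minus) for Actg1.
Egr2: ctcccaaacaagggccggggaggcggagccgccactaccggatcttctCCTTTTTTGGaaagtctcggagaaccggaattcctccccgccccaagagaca
Dusp5: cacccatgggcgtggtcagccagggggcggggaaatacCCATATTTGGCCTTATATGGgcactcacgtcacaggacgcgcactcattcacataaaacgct
Acta1: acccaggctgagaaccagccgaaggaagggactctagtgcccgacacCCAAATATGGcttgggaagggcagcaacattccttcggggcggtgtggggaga
Actg1: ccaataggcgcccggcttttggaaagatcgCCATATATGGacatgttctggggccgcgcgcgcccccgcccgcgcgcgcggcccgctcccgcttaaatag
Dusp5 held 2 such elements side by side, so its capitals form 1 run. A match is a run of letters and not evidence of binding.

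Matrix genes split. Of 27 measured collagens and matrix proteins 5 passed as higher and 1 as lower (2.15% and 0.991% of all genes did). The median was 0.40 with 18 above 0, against medians of -0.01 in leucine-free footprints and 0.03 in RNA. The higher ones were tenascin-C (Tnc), with 69 footprints in KO and 15 in WT cells and 2.64 (1.87 to 3.60), the collagen cross-linking enzyme Lox, with 120 and 42 and 1.99 (1.48 to 2.54), Col12a1, with 461 and 163 and 1.98 (1.73 to 2.25), and the basement membrane genes Col18a1 (1.08) and Lama5 (1.06). Lama5 rested on 4651 footprints in KO and 3120 in WT cells. Col1a1, the main chain of type I collagen, went the other way, with 110 footprints in KO and 412 in WT cells, -1.42 (-1.74 to -1.11). Col3a1, the most abundant of the collagens named here, had 1407 CPM in KO and 1557 CPM in WT cells, -0.15 (-0.18 to -0.11). Of 8 integrins Itga3, which pairs with beta-1 to bind laminin, passed with 240.3 CPM in KO and 110.1 CPM in WT cells, 1.13 (1.01 to 1.24).

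Several lists shifted by less than the 2-fold threshold but with most members on 1 side. Sterol and fatty acid synthesis genes, which are under SREBP control, had 30 of 31 members above 0 and a median of 0.33. Tm7sf2, a sterol reductase, was the member that passed, with 328 footprints in KO and 227 in WT cells, 1.02 (0.77 to 1.27). Fasn, the fatty acid synthase, had 2378 CPM in KO and 1655 CPM in WT cells, 0.52 (0.49 to 0.56), and Scd2, a stearoyl-CoA desaturase, 2119 and 1619 CPM, 0.39 (0.35 to 0.42). The list's RNA median was 0.23 and its leucine-free footprint median 0.18.

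Giant cytoskeletal and scaffold proteins, whose coding sequences are among the longest, had 17 of 19 members above 0 and a median of 0.35 with 0 passing either way. The scaffold gene Iqgap1 had 489.3 CPM in KO and 294.0 CPM in WT cells, 0.73 (0.66 to 0.81), the plectin gene Plec 0.53 and the dynein heavy chain gene Dync1h1 0.51. The exceptions were Huwe1 (-0.58) and Flna (-0.18), both X-linked. Leucine-free footprints had the list's median at -0.39 with 18 of 19 below 0, and RNA of the replete pair at -0.12. Plec itself had -1.19 and Dync1h1 -1.21 without leucine. The difference between the media was not tested.

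Other lists leaned low. Of 34 genes of the v-ATPase, which acidifies lysosomes, and of lysosomal membrane proteins, 29 were below 0, with a median of -0.20 and 0 passing, while in RNA of the replete pair 19 were above 0 and the median was 0.01. The 3 lowest, the v-ATPase accessory genes Atp6ap2 (-0.84) and Atp6ap1 (-0.83) and Lamp2 (-0.76), are all X-linked, while Lamp1 on chromosome 8 had -0.18 (-0.23 to -0.14). Replication-dependent histones had 46 of 52 below 0 and a median of -0.26, with Hist1h1a (15 footprints in KO and 116 in WT cells, -2.43) and Hist1h2bp (189 and 546, -1.04) passing as lower. Their RNA leaned the other way, with a median of 0.11. In RNA 11 members passed as higher and 2 as lower (2.58% and 1.32% of all genes with enough RNA reads did). Both kinds of count are uncertain because the histone genes are near-identical copies. G2 and mitosis genes had 24 of 30 below 0 with a median of -0.17, Ccna2 (cyclin A2) lowest at -0.56 and Cdk1 at -0.30. Ribosome biogenesis genes had 22 of 26 below 0, median -0.18, with Gar1 at -0.62 and the nucleolin gene Ncl at -0.11. With the lean of ratios with depth removed, an adjustment added after the values were seen, the medians of these 4 lists were -0.19, -0.19, -0.11 and -0.09 in the order given.

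Ribosomal proteins showed no common shift in replete medium. Of 64 measured, 28 were above 0, 2 passed as lower, and the median was -0.05, against 0.29 in leucine-free footprints. The lower ones were Rpl39 (71 footprints in KO and 217 in WT cells, -1.12) and Rpl10 (316 and 902, -1.03), both X-linked and both with pseudogene copies that make their counts uncertain. The 23 other 5' TOP mRNAs, which like ribosomal protein mRNAs depend on mTORC1 for translation, had a median of 0.02 with 0 passing, and 33 initiation factors -0.11 with 0 passing.

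The 41 lysosomal hydrolases, the enzymes that break down protein, lipid and sugar taken up by the cell, had a median of 0.09, with Fuca1 and the mannosidase gene Manba (66 footprints in KO and 186 in WT cells, -1.004) passing as lower. Autophagy genes (25 measured), macropinocytosis and endocytosis genes (31) and endoplasmic reticulum chaperones (22) had medians of 0.08, -0.01 and 0.06 with 0 passing. The 15 cytosolic heat shock proteins had -0.02, and Hspb8, a small heat shock protein, passed as lower with 12 footprints in KO and 126 in WT cells, -2.86 (-3.90 to -2.05). Among 7 measured imprinted genes Grb10 passed as lower and Gnas, the stimulatory G protein alpha subunit, as higher, with 172 footprints in KO and 106 in WT cells, 1.18 (0.83 to 1.55). RNA of Gnas numbered 223 reads in KO and 179 in WT cells, a ratio of 0.45. Whether reads of Gnas were lost to overlapping genes was not tested. Of 13 interferon and antigen presentation genes the class I gene H2-K1 passed, with 100 and 50, 1.48 (0.98 to 2.01). Nuclear-encoded oxidative phosphorylation (43 genes, -0.04), DNA replication and S phase (29, -0.03) and glycolysis (17, 0.16) had 0 passing. The same held for NRF2 targets with glutathione genes (18, -0.05) and for p53 targets with tumour genes (17, -0.07). The 7 mitochondrially encoded proteins had -0.23, with mt-Cytb at -0.42 (-0.45 to -0.38). The 4 measured duct markers were all above 0, with Krt18 at 0.91 (0.83 to 0.99), Sox9 at 0.79, Krt8 at 0.65 and Spp1 near 0 at 0.08. In leucine-free footprints 1 of the 4 was below 0. The fibroblast and mesenchyme list had a median of 0.27 with Col1a1 passing as lower.

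**Figure D4:**
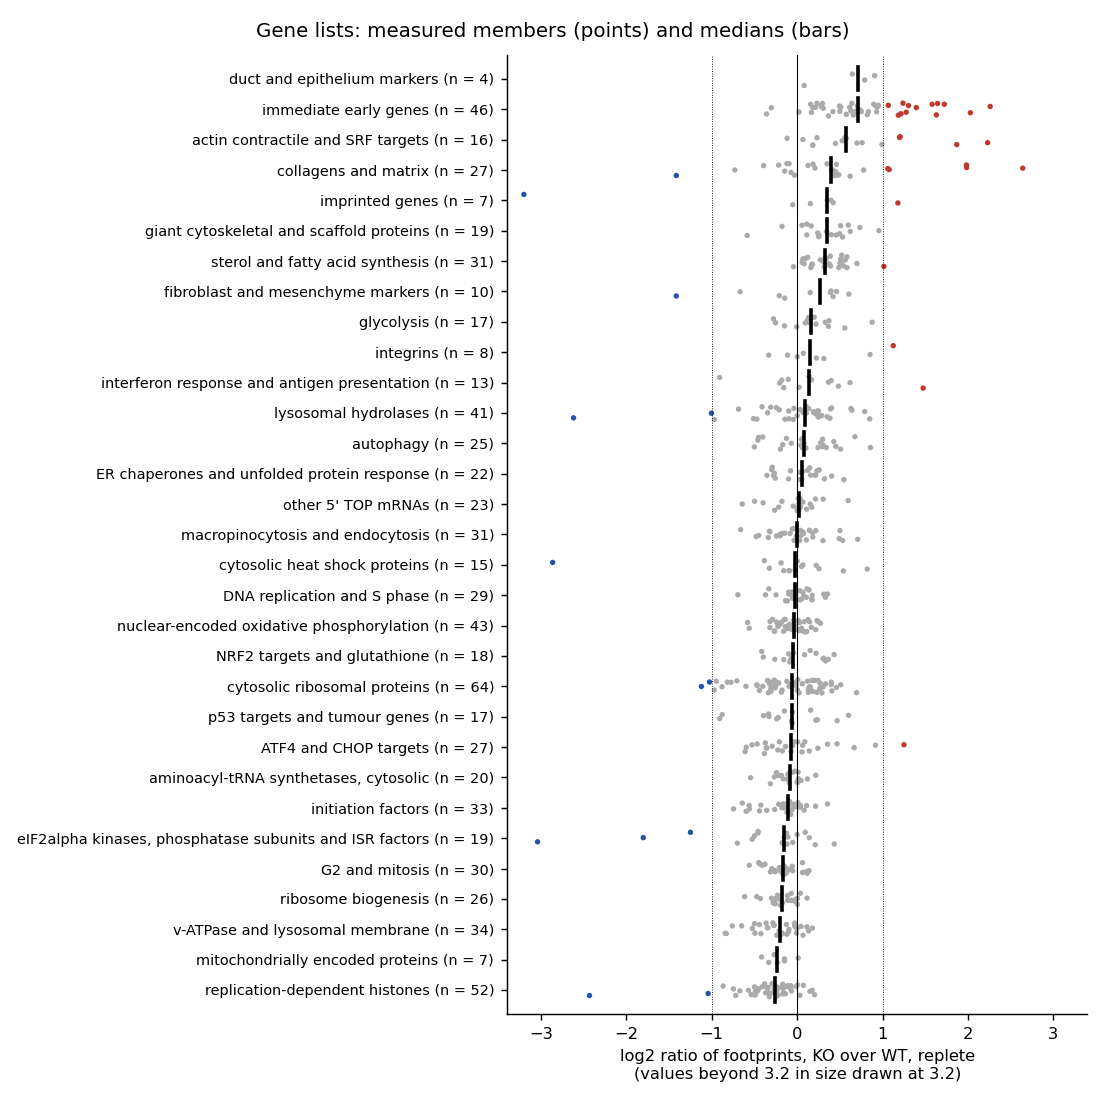
Log2 ratios of KO over WT replete footprints for the measured members of 31 gene lists, ordered by median; grey points did not pass, red points passed as higher and blue points as lower, black bars are medians, and dotted lines mark 1 and -1. Immediate early and actin genes sit right of 0, replication-dependent histones and the v-ATPase list left of it, and most lists straddle 0.

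Where a gene lies in the genome went with its ratio. This grouping was chosen after the values were seen. Of 295 measured protein-coding genes on the X chromosome 264 (89.5%) were below 0, and their median was -0.51, so the median X-linked gene had 70.3% of its WT level. The X held 3 higher and 17 lower genes, and 22.4% of the 76 lower protein-coding genes were X-linked, while 3.22% of all measured protein-coding genes were. Leucine-free footprints had an X median of -0.59, and RNA -0.43 in replete and -0.45 in leucine-free cells. The X-linked genes on the gene lists number 22, of which 19 were below 0. Those at or above 0 were the sterol synthesis genes Ebp (0.06) and Nsdhl (0.07) and the NADPH-producing G6pdx (0.09).

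Chromosome 3 and parts of chromosomes 5 and 7 had smaller shifts. On chromosome 3, 82.0% of 438 genes were below 0, with a median of -0.29, or 81.9% of the WT level, and -0.27 in RNA. On chromosome 5 the 423 genes beyond 60 Mb had a median of -0.26 with 78.7% below 0, while the 164 up to 60 Mb had 0.06. On chromosome 7 the order was reversed, with -0.22 for the 321 genes up to 80 Mb and 0.07 for the 303 beyond. RNA of the same replete cells gave -0.32 for the far part of chromosome 5 and -0.31 for the near part of chromosome 7. The 7217 genes of the other 16 autosomes had a median of 0.04 with 44.0% below 0, and 36 of them passed as lower (0.499%, against 5.76% on the X). Parts of these autosomes stood apart as well. The 64 genes beyond 120 Mb on chromosome 8 had a median of -0.28 with 81.3% below 0 and -0.31 in RNA, and the 29 genes beyond 180 Mb on chromosome 2 had 0.38 with 0 below 0 and 0.30 in RNA. The medians of those 16 whole chromosomes ran from -0.04 on chromosome 10 to 0.09 on chromosome 17. The files hold no measure of gene copy number, so a difference in copy number between the KO and WT cells was not tested. For any gene, in these regions or outside them, the loss of Gcn2 and another difference between the 2 cell populations cannot be told apart.

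**Figure D5:**
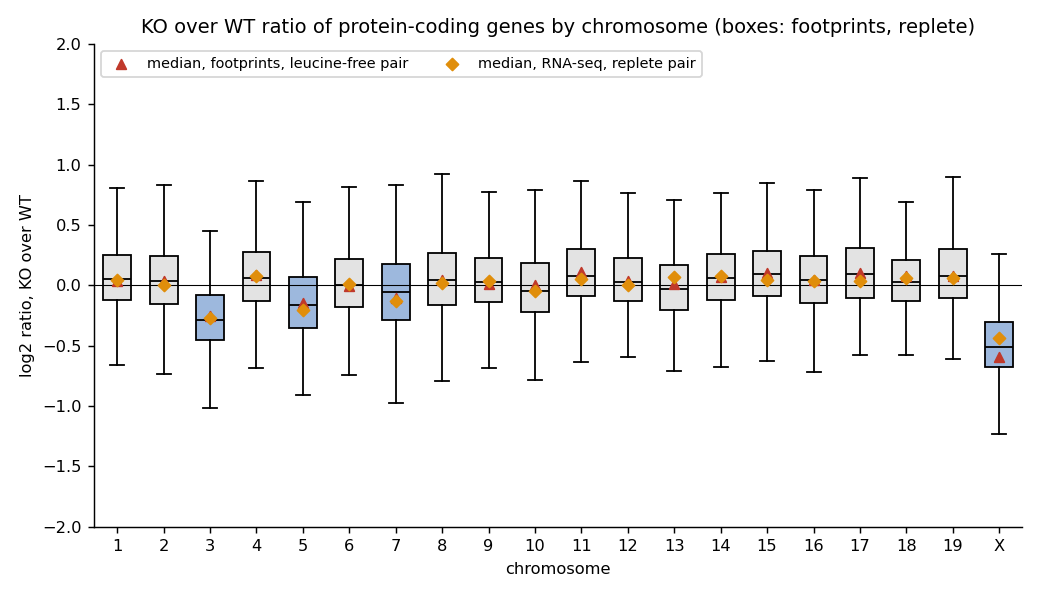
Log2 ratios of KO over WT for measured protein-coding genes by chromosome; boxes give the quartiles and median of replete footprints with whiskers to 1.5 times the box height, red triangles the median in leucine-free footprints and orange diamonds the median in replete RNA-seq. Chromosomes 3, 5, 7 and X (blue boxes) have medians below 0 in all 3 pairs, with the X lowest at -0.51 in replete footprints.

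Genes outside the protein-coding class differed by kind. The 321 non-coding or unclassed genes had a median of -0.12, with 195 below 0. Of these 321, 4 passed as higher and 18 as lower (2.15% and 0.991% of all genes did). Small nuclear RNAs (26 genes) and small nucleolar RNAs (51 genes) had medians of -0.29 and -0.26, and the 59 long non-coding RNAs -0.26, while 88 pseudogenes had 0.03 and 9 microRNA genes 0.09. The ribosomal RNAs of mitochondria, mt-Rnr1 and mt-Rnr2, took 1.94% of all counted footprints in KO cells and 2.61% in WT cells. Reads on such RNAs are not footprints of translating ribosomes on coding sequence.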

How the data were processed

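Ribosome profiling and RNA-seq libraries were made from KRPC-A cells, 1 library per genotype, medium and assay. Per the labels' protocols, lysates held cycloheximide, footprints were made with ribonuclease I, and, after linker ligation and reverse transcription, cDNA was amplified by PCR. The deposited values are raw counts per gene. Per the file headers they were made with featureCounts 1.6.4 on exons of Ensembl release 96, with no option for strand, multiply mapped or overlapping reads. The header of the WT replete footprint file names another output directory than those of the other footprint files, with the same options. The tools cutadapt and STAR, the Subread package with featureCounts, and the build GRCm38 are listed in the submitters' processing notes. Reads in untranslated regions count toward a gene, reads shared by near-identical or overlapping genes are not counted, and the strandedness is not given in the sources used here.

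Ensembl identifiers gave a symbol for 55450 of 55536 genes, and gene classes came from RefSeq on GRCm38.p6. Counts were scaled within ribosome profiling by trimmed mean of M-values (TMM) over protein-coding genes with a mean count of at least 30 (edgeR 4.0.16, R 4.3.3), with factors from 0.982 to 1.03, and RNA-seq was scaled in the same way. Ratios are log2 of scaled KO over WT counts with 0.5 counts added to each. Their 95% intervals are exact conditional binomial, and those of CPM exact Poisson. Because each group is 1 library, nothing was tested across cultures and p-values are not given. Amplified reads carry no molecular identifiers and may be copies of 1 molecule, so intervals and floors cover counting error only. A count of 0 was bounded by setting it at 3 counts. The calculations were tested on simulated counts. Python 3.11.15, numpy 2.4.6, pandas 2.3.3, scipy 1.17.1 and matplotlib 3.10.9 were used.

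The named genes were Eif2ak4 and Atf4, the 10 highest and 10 lowest protein-coding genes that passed with at least 100 footprints and 100 RNA reads over the replete pair and the same sign in RNA and leucine-free footprints, up to 5 genes each way that passed with at least 100 footprints and the other sign in leucine-free footprints, up to 5 with under 10 RNA reads, and per list up to 4 that passed, or the 2 with most footprints where fewer than 2 passed. Others were named after their values were seen. The genes, the 33 gene lists and the rules were chosen with earlier results of these data known. Alternatives were other scalings (total counts, DESeq2 1.42.0 size factors), other count minimums, an added count of 5, and removal of trends with length or count.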

Additional observations from a re-analysis of the deposited data

Results flagged for a closer look

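Mir6236, an annotated microRNA gene, passed in opposite directions in the 2 media, the only one of the 9489 genes to do so. It had 220 footprint counts in KO and 114 in WT replete cells, a log2 ratio of 1.43 (1.10 to 1.77). In leucine-free medium it had 79 in KO and 108 in WT cells, a ratio of -1.29 (-1.74 to -0.87). RNA reads in the replete pair numbered 34244 in KO and 12021 in WT cells, a ratio of 1.64. In the leucine-free pair they numbered 20908 in KO and 51964 in WT cells, a ratio of -0.92, so RNA changed sign as well. Reads from other sequences that map to this gene were not tested, so the counts need not come from the microRNA. The difference between the media was not tested.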

How the results depend on the processing

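No paired analysis was possible because each genotype and medium is 1 footprint library, and for the same reason no replicate could be left out. The counts of genes that passed depended on the minimum mean count. They were 404 higher and 199 lower with a minimum of 10, 86 and 37 with a minimum of 100, and 642 and 296 with no minimum beyond 1 count, against 204 and 94 as reported. Over the other settings run (total counts, DESeq2 size factors, TMM over all gene classes or with no minimum, an added count of 5, protein-coding genes alone, trends with length or count removed, ratios relative to the chromosome median) they ran from 169 to 219 higher and from 75 to 116 lower genes. Removing the trend with count gave 169 and 116, and total counts 219 and 85. TMM with no minimum, the trend with count and the chromosome median were added after the data were seen. Genes named in the text were refitted with total counts, DESeq2 size factors and an added count of 5, and none that had passed changed sign. Sbk1, Rhbg, Wnk2, Manba, Tm7sf2, Tkfc and Zfp57 no longer passed with an added count of 5, Rhbg, Rpl10, Manba and Zfp280c with total counts, and Tkfc and Zfp57 with DESeq2 size factors. Cnn2, Slc9a3r2 and Tubb2b passed with total counts. All these values lay within 0.1 of the threshold. The depth limits genes such as Ddit3, with 4 footprints in the KO replete library.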
